A study of Mus musculus with 20 samples.

Results

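Cyp3a11 is the main cytochrome P450 of the CYP3A subfamily in mouse liver. It is described here as a single gene, defined by its name and position on chromosome 5, and was chosen with earlier results of these data known. It is 1 of 2200 genes tested and of 5552 mouse genes that the deposited counts could be attributed to. Liver RNA of 20 individual mice was sequenced, with 5 mice in each of 4 groups: anti-CD40 with antibiotics (ABX), anti-CD40 without ABX, control with ABX, and control without ABX. Anti-CD40 binds CD40, through which T cells act on B cells, macrophages and dendritic cells. The sources used here do not give the antibody's dose, its timing or whether it is an agonist, which antibiotics were used, what the control mice received, or the strain, age and sex of the mice. Each mouse was measured once, so a p-value below measures the spread between individual mice.

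P450 enzymes of the CYP3A subfamily oxidise drugs, steroids and bile acids in the endoplasmic reticulum of hepatocytes, and in mouse liver Cyp3a11 takes the place that CYP3A4 has in human liver. Its transcription is driven by the pregnane X receptor (PXR, gene Nr1i2) and the constitutive androstane receptor (CAR, gene Nr1i3), which bind DNA as partners of retinoid X receptors and are activated by drugs, by bile acids such as lithocholic acid and by products of gut bacteria. As background from other work, livers of germ-free and antibiotic-treated mice hold less Cyp3a11 transcript, and inflammatory cytokines such as interleukin-6 and tumour necrosis factor lower the transcripts of many P450 genes in hepatocytes.

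The gene (ENSMUSG00000056035.8) lies on the minus strand of mm10 at chr5:145854426-145879964 and has 13 exons. The authors counted mouse alignments at human exon coordinates, and the set of intervals that lies over Cyp3a11 takes in 163 bp of its exons, the whole of exon 12, a coding exon. That is 3.2% of the gene's 5093 bp of exon sequence. The same set holds 1839 bp of Cyp3a11 introns and 189 bp outside the gene, upstream of its start, out of 2191 bp in all, and its deposited count cannot be divided among them. Every level below is therefore that of exon 12 together with these stretches, and not of the whole transcript. Exon 12 is printed because the level rests on it, with the same exon of Cyp3a16, the most similar copy of the 8 CYP3A genes compared. Capitals mark the 4 bases at which the 2 exons differ.
Cyp3a11 exon 12, mm10 chr5:145858721-145858883, minus strand: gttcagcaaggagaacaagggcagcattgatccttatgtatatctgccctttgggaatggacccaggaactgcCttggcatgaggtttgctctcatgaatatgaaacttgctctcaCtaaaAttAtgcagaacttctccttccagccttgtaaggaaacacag
Cyp3a16 exon, mm10 chr5:145440357-145440519, minus strand: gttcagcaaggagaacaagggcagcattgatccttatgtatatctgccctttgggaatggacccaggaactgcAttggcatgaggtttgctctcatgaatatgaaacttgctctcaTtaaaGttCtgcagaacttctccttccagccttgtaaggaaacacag
The exons are 97.5% identical, with an identical run of 73 bases. Cyp3a44 differed from Cyp3a11 at 9 of the 163 bases, Cyp3a41a and Cyp3a41b at 11 each, Cyp3a57 at 23, Cyp3a25 and Cyp3a59 at 26 each, and Cyp3a13 at 29. Reads of the closest copies can be placed at Cyp3a11, so the level may include them, and their part in it was not tested.

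**Figure D1:**
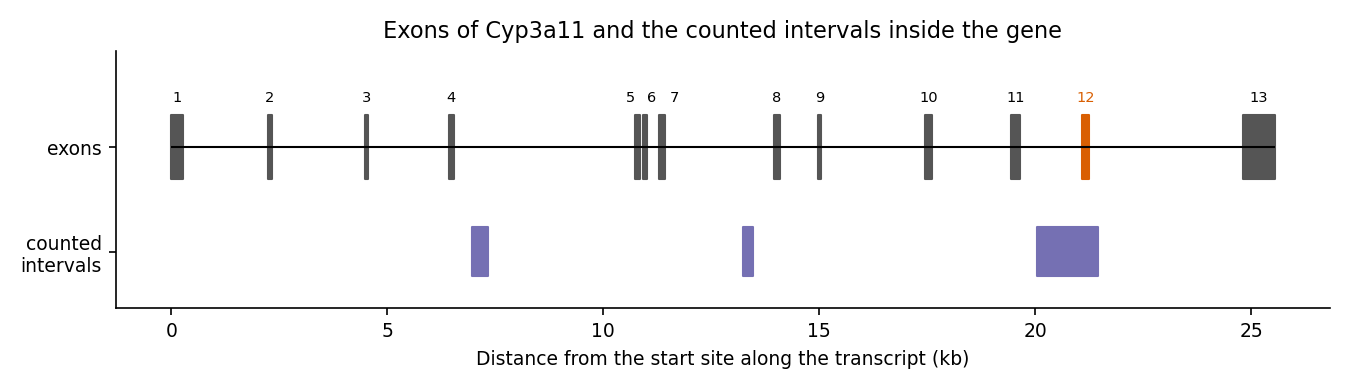
The 13 exons of Cyp3a11 (upper row, numbered) and the counted intervals inside the gene (lower row), by distance from the start site along the transcript in kb. Exon 12 (orange) is the exon under a counted interval, and the 2 intervals beyond the gene's start are not drawn.

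The sequence directly upstream of the gene's annotated start is printed because it is where receptors of the PXR and CAR type are known to act in P450 genes, at repeats of AGGTCA-like motifs. It runs from 250 to 111 bases before the RefSeq start, and capitals mark the motif AGGTCA.
Cyp3a11 upstream, RefSeq, GRCm38.p6 chr5:145879965-145880104, minus strand: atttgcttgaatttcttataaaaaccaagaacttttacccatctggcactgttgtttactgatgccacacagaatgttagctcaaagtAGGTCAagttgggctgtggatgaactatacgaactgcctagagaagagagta
AGGTCA, searched on both strands (TGACCT on the other), occurred once in these 140 bases. The same window held it in 2624 of 32851 RefSeq promoters, or 7.99%.

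Cyp3a11 was highest in control mice without ABX, was lower with either treatment alone, and was lowest with both. Levels are counts per 1000000 after TMM scaling (CPM), not divided by length. In anti-CD40 mice with ABX, Cyp3a11 had 193, 189, 141, 167 and 194 CPM in mice 11 to 15. In anti-CD40 mice without ABX it had 576, 314, 667, 433 and 660.2 CPM in mice 16 to 20. In control mice with ABX it had 533, 479, 590.02, 915 and 552 CPM in mice 1 to 5. In control mice without ABX it had 2534, 2715, 1615, 3749 and 3203 CPM in mice 6 to 10. Every mouse given both treatments lay below every other mouse, and every control mouse without ABX lay above every other mouse. The group means were 177 ± 22.9 CPM with both treatments, 530.0 ± 153 with anti-CD40 alone, 614 ± 173 with ABX alone and 2763 ± 797 with neither (SD, n = 5 each). The coefficient of variation was 12.9% with both treatments, 28.9% with anti-CD40 alone, 28.2% with ABX alone and 28.8% with neither. Among control mice without ABX, the lowest level was that of mouse 8, whose library also had the lowest mitochondrial share of its group, 22.4% against 28.9% to 31.1% in the other 4. Without mouse 8, the Cyp3a11 change with ABX in control mice was -2.31 and that with anti-CD40 without ABX was -2.53. These levels rest on 898 to 1260 counts per library with both treatments, 2453 to 4189 with anti-CD40 alone, 2653 to 5178 with ABX alone and 9690 to 25250 with neither, so that counting error is small beside the spread between mice. As a share of all counts of a library, the lowest value was 0.0161% (exact 95% interval 0.0150% to 0.0172%) in mouse 13, given both treatments, and the highest was 0.343% (0.339% to 0.347%) in mouse 9, given neither.

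**Figure D2:**
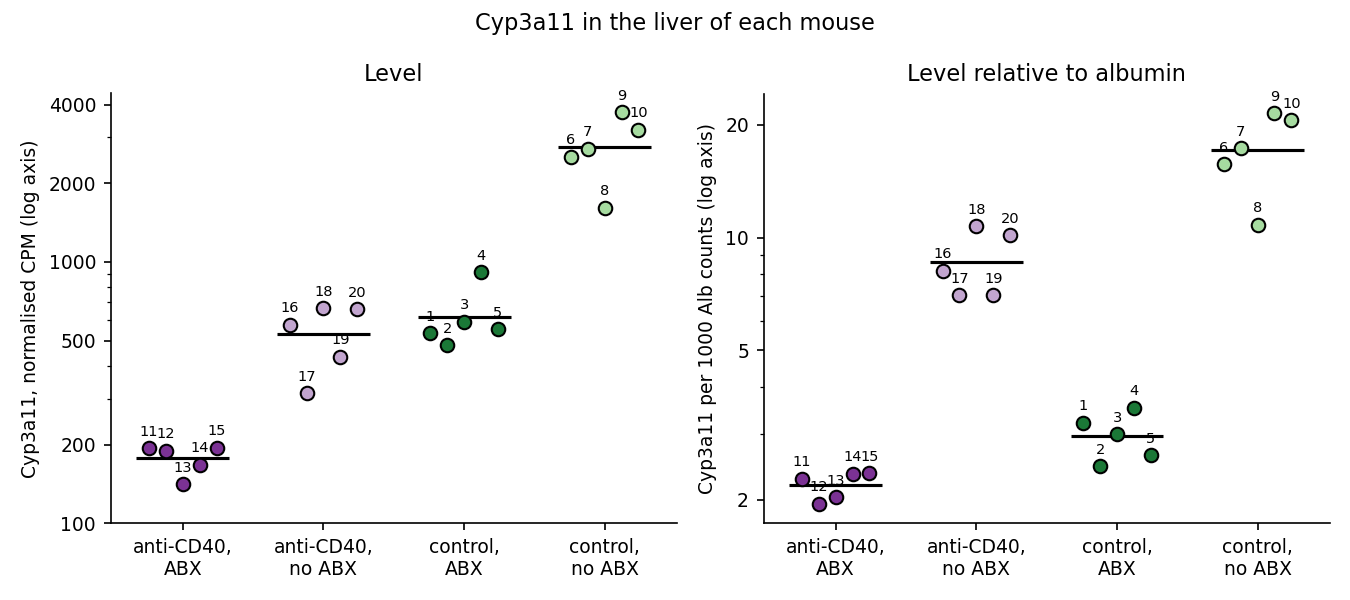
Cyp3a11 in each mouse (points, numbered by mouse) by group, as normalised CPM (left) and per 1000 albumin counts (right), both on log axes, with the group mean as a line. On the CPM scale both single-treatment groups overlap, and the other groups stand apart; relative to albumin the anti-CD40 group without ABX, between 7.01 and 10.7, lies above both ABX groups.

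The order of the groups was tested over the 6 pairs with an exact two-sided permutation test of mean log2 CPM, whose smallest possible p with 5 against 5 mice is 0.00794. Of the 6 pairs, 5 gave that smallest p (0.00952 after Benjamini-Hochberg adjustment over the pairs), with no overlap between groups. Among all genes, the first group lay wholly below the second for 21.1% of genes with anti-CD40 without ABX, 18.5% with anti-CD40 with ABX, 2.68% with ABX in control mice, 4.09% with ABX in anti-CD40 mice and 18.5% with both treatments against neither. The neighbours that could not be ordered were anti-CD40 alone and ABX alone. They differed by -0.23 on the log2 scale (95% interval -0.84 to 0.38, exact permutation p = 0.429), and their mice overlapped. That interval holds differences of either sign.

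Anti-CD40 lowered Cyp3a11 in mice without ABX and in mice with ABX. Without ABX, Cyp3a11 fell to 530.0 ± 153 CPM in anti-CD40 mice, against 2763 ± 797 CPM in control mice (SD, n = 5 each), which is 5.21-fold lower. The log2 fold change was -2.38 ± 0.24 (SE; 95% interval -2.88 to -1.88; adjusted p = 6.77e-08, edgeR quasi-likelihood test). In this comparison 28.8% of all genes tested were called lower at an adjusted p under 0.05, and 60.6% in either direction. Cyp3a11 was the 58th most lowered of 2200 genes, and 175 genes had a change at least as large in either direction. With ABX, Cyp3a11 fell to 177 ± 22.9 CPM in anti-CD40 mice, against 614 ± 173 CPM in control mice, which is 3.47-fold lower. The log2 fold change was -1.79 ± 0.24 (95% interval -2.29 to -1.30; adjusted p = 2.95e-06, edgeR), where 24.9% of genes were called lower, 51.5% in either direction, and Cyp3a11 ranked 103rd. In a bulk sample, fewer cells of a type and less RNA per cell cannot be told apart. With library totals as the scaling the change with ABX was -1.43, and with plate column as a term it was -2.40; anti-CD40 mice with ABX and control mice with ABX shared no plate column.

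ABX also lowered Cyp3a11, with a change of similar size but in a comparison where few genes changed. In control mice, Cyp3a11 fell to 614 ± 173 CPM with ABX, against 2763 ± 797 CPM without ABX, which is 4.50-fold lower. The log2 fold change was -2.17 ± 0.24 (95% interval -2.67 to -1.67; adjusted p = 6.10e-05, edgeR). Only 3.23% of genes were called lower here, and 6.68% in either direction. Cyp3a11 had the smallest p of the 2200 genes and the sixth most negative change. In anti-CD40 mice, Cyp3a11 fell to 177 ± 22.9 CPM with ABX, against 530.0 ± 153 CPM without ABX, which is 2.99-fold lower. The log2 fold change was -1.58 ± 0.23 (95% interval -2.07 to -1.09; adjusted p = 0.000231, edgeR), where 7.23% of genes were called lower and 15.9% in either direction, and Cyp3a11 was the 23rd most lowered gene and ranked 21st by p. The ABX mice lay wholly below the mice without ABX in both comparisons.

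These 2 ABX comparisons share no library, and each mouse group enters 1 of them. Of the 71 genes called lower with ABX in control mice, 8 (11.3%) were also called lower with ABX in anti-CD40 mice. Of all genes, 7.23% were called lower in anti-CD40 mice. The 8 were 5.03% of the 159 genes called lower in anti-CD40 mice, where 3.23% of all genes were called lower in control mice. Cyp3a11 was one of the 8. A further 25 genes were called higher in both comparisons, and 8 were called in opposite directions. Libraries were spread over plate columns unevenly by group, and within plate column 3, which held 5 ABX and 3 other control mice, Cyp3a11 changed by -1.91 with ABX (adjusted p = 0.0106, edgeR). With plate column as a term, the ABX change was -1.90 in control mice (adjusted p = 0.000878, edgeR). It was -1.70 in anti-CD40 mice, a value that rests on 1 mouse without ABX. Mouse 16 was the only anti-CD40 mouse without ABX in plate column 4, where all anti-CD40 mice with ABX were. Mice 17 to 20 were in plate column 5, which held no other group. The term therefore says little about plate column for any change that involves anti-CD40 mice without ABX.

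**Figure D3:**
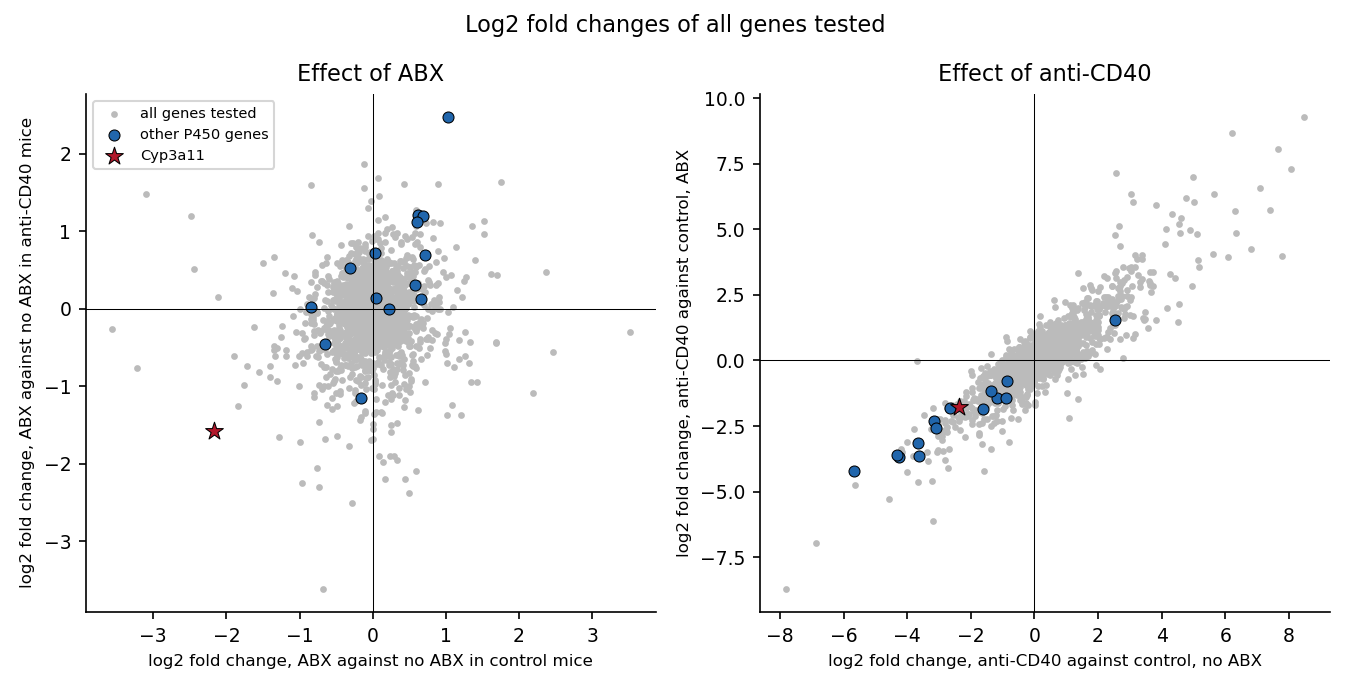
Log2 fold change of each of the 2200 genes tested (grey), of the other P450 genes (blue) and of Cyp3a11 (star), with ABX against no ABX on the left and anti-CD40 against control on the right. In both panels the axes are comparisons that share no library. Cyp3a11 sits at -2.17 and -1.58 in the left panel, apart from the other P450 genes, and within their range at -2.38 and -1.79 in the right panel.

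Whether the treatments add up depends on the scale. Given together, anti-CD40 and ABX left Cyp3a11 at 177 CPM, against 2763 CPM with neither, a log2 fold change of -3.96 ± 0.26 (95% interval -4.50 to -3.43; adjusted p = 1.61e-10, edgeR), or 15.6-fold lower; 25.4% of genes were called lower and 51.2% in either direction, and Cyp3a11 ranked 9th. With both treatments, 6.41% of the level with neither was left; it was 19.2% with anti-CD40 alone and 22.2% with ABX alone. If the fold changes multiplied, 4.26% would be left, or 118 ± 26.1 CPM, against an observed 177 ± 10.2 CPM (SE), which is 1.5 times as much. On the log2 scale the ABX change in anti-CD40 mice minus that in control mice was 0.59 ± 0.32 (95% interval -0.09 to 1.27; adjusted p = 0.285, edgeR), so a departure from multiplying folds was not called. At this replication the interval also holds a doubly treated level somewhat under, and up to well over, the product of the folds. Of all genes, 7.55% had a called interaction. The estimate lay between 0.46 and 0.78 when each mouse in turn was left out, and it was 0.20 with plate column as a term.

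On the CPM scale the changes did not add. The difference with ABX was -353 ± 69.2 CPM in anti-CD40 mice and -2149 ± 365 CPM in control mice (SE). The difference with anti-CD40 was -437 ± 78.1 CPM with ABX and -2233 ± 363 CPM without ABX. Adding the single differences would put the doubly treated mice at -1619 CPM, below zero. The observed level exceeded that sum by 1796 ± 371 CPM (SE), which is a description with no p. With 19.2% and 22.2% of the level left by the single treatments, CPM differences of that size cannot add to a level above zero.

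**Figure D4:**
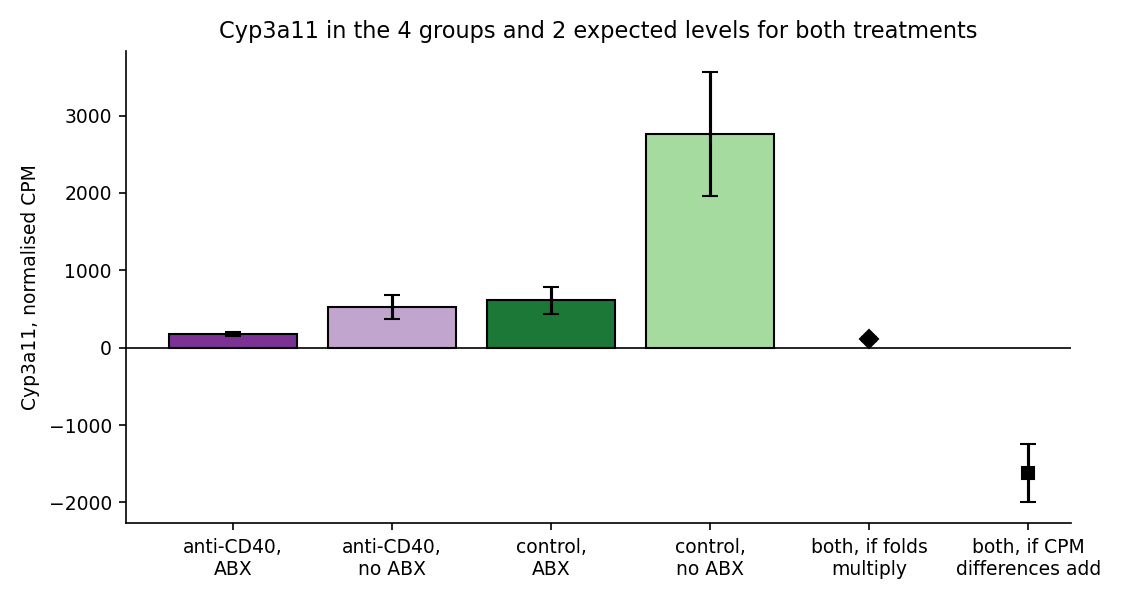
Mean Cyp3a11 level of the 4 groups (bars, with SD, n = 5 each) and 2 levels expected for mice given both treatments (points, with SE). The expected level is 118 CPM if fold changes multiply, near the observed 177 CPM, and -1619 CPM if differences in CPM add; the SE of the first is smaller than its marker.

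Albumin (Alb), the most abundant hepatocyte secretory transcript here, was used to set Cyp3a11 against another hepatocyte transcript. Alb had 81136 ± 11136 CPM with both treatments, 60914 ± 9650 with anti-CD40 alone, 205928 ± 34543 with ABX alone and 159626 ± 9355 with neither. Alb itself fell with anti-CD40 without ABX (-1.39) and with ABX (-1.34), was at 0.37 (not called) with ABX in control mice and rose by 0.41 with ABX in anti-CD40 mice. That last call was lost with plate column as a term (0.20, adjusted p = 0.706) and without mouse 11, 12, 17 or 18. Per 1000 Alb counts, Cyp3a11 had 2.27, 1.95, 2.03, 2.34 and 2.35 counts in mice 11 to 15, given both treatments. It had 8.16, 7.01, 10.7, 7.01 and 10.1 in mice 16 to 20, given anti-CD40 alone. It had 3.21, 2.45, 2.98, 3.51 and 2.63 in mice 1 to 5, given ABX alone, and 15.7, 17.3, 10.8, 21.5 and 20.5 in mice 6 to 10, given neither. The 4 groups do not overlap on this scale, and the mice with ABX lie lowest whether or not they had anti-CD40. The means were 2.19 ± 0.186 with both treatments, 8.61 ± 1.74 with anti-CD40 alone, 2.96 ± 0.429 with ABX alone and 17.2 ± 4.26 with neither (SD, n = 5 each). Anti-CD40 thus changed the ratio by -0.98 without ABX (95% interval -1.49 to -0.47) and by -0.43 with ABX (-0.69 to -0.16) on the log2 scale. ABX changed it by -2.51 in control mice and by -1.96 in anti-CD40 mice. All 4 differences had the smallest possible exact permutation p of 0.00794, and no pair of groups overlapped. Against the mean of 5 hepatocyte identity genes, the log2 differences of Cyp3a11 with anti-CD40 were larger, -2.02 without ABX and -1.64 with ABX, and those with ABX were -2.08 in control mice and -1.70 in anti-CD40 mice (exact permutation p = 0.00952 each, adjusted over the pairs). The size of the anti-CD40 change thus depends on the denominator. The 5 genes include Alb itself, and they moved in different directions with anti-CD40. Without ABX, Alb (-1.39), Foxa2 (-1.08) and Asgr1 (-0.29) fell, and Apob (0.23) and Fgfr4 (0.74) rose. With ABX, 2 of the 5 fell and 2 rose. Relative to Alb the single-treatment groups separated as well, with anti-CD40 alone higher than ABX alone by 1.53 (exact permutation p = 0.00794). Against the hepatocyte identity mean, that difference was 0.060 (p = 0.778 by the same exact test), so the order of these groups rests on Alb as the denominator. Of those 5 genes, 0 were called by edgeR with ABX in control mice (2 had an unadjusted p under 0.05, and DESeq2 called 1), and their median change was 0.03, against -0.01 over all genes.

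Of 9 CYP3A genes listed, 2 were attributed and tested: Cyp3a11 and Cyp3a59. Cyp3a59, a member of the same gene cluster, fell with anti-CD40 without ABX (-2.66 ± 0.16) and with ABX (-1.80 ± 0.16), and with ABX in control mice (-0.84 ± 0.15; adjusted p = 0.00174). In anti-CD40 mice ABX left it at 0.02 ± 0.18 (adjusted p = 0.944). Its levels were 9.16 CPM with both treatments, 9.02 with anti-CD40 alone, 31.8 with ABX alone and 57.0 with neither. Unlike Cyp3a11, it was thus no lower with both treatments than with anti-CD40 alone. Among the sets of intervals summed as Cyp3a59, 1 also lies over the body of Cyp3a25, and its count cannot be divided between the genes. That set had 3.85 CPM with both treatments, 3.26 with anti-CD40 alone, 11.6 with ABX alone and 21.9 with neither. The interaction of Cyp3a59 was called (0.86 ± 0.23; adjusted p = 0.0249, with 4.36% of all genes called higher), and that of Cyp3a11 was not; the difference between these interactions was not tested. The call for Cyp3a59 was lost with plate column as a term (0.89, adjusted p = 0.291) and without mouse 14 (0.77, adjusted p = 0.0581). A counted interval inside a Cyp3a25 intron, over no exon, had 7.45 CPM with both treatments, 5.61 with anti-CD40 alone, 22.97 with ABX alone and 44.4 with neither. It fell with anti-CD40 without ABX (-2.97) and with ABX (-1.60), and was at -0.95 with ABX in control mice (adjusted p = 0.196). An interval within the body of Cyp3a16, over none of its exons, held 2 counts in all libraries.

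Of 23 xenobiotic receptor and partner genes listed, 4 were tested; Nr1i2 and Nr1i3 themselves were not analysed here. Without ABX, anti-CD40 lowered 2 of the 4 and raised 0, where 28.8% of all genes were called lower and 60.6% either way. Those were Rxra (-0.64), the retinoid X receptor partner of PXR and CAR, and Ncor1 (-0.51), a corepressor of nuclear receptors. With ABX, anti-CD40 raised Rxrg (1.01) and lowered 0, where 26.6% of all genes were called higher. With plate column as a term, 1 of the 4 fell without ABX (Ncor1) and 0 were called with ABX. With ABX in control mice 0 of the 4 were called by edgeR or DESeq2, and 0 had an unadjusted p under 0.05. Of all genes, 6.68% were called there by edgeR in either direction. Rxra was at -0.01 in that comparison. ABX raised Rxra (0.47) and Ncor1 (0.46) in anti-CD40 mice, where 8.68% of all genes were called higher. With plate column as a term 0 of the 4 were called there, and the call of Rxra was also lost without mouse 11, 13, 17 or 18. The coactivator gene Ncoa1 was called in none of these 4 comparisons. The list's median change was -0.06 with ABX in control mice, against -0.01 over all genes. The part of these genes in the change of Cyp3a11 was not tested.

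Of the other genes tested that PXR and CAR are known to induce, 0 were called lower with ABX. Of all genes, 3.23% were called lower with ABX in control mice and 7.23% in anti-CD40 mice, so 0 of so few genes is near that share. Of 33 listed, 4 were tested. With ABX in control mice 0 of 4 were called by edgeR or DESeq2, and 0 had an unadjusted p under 0.05, with a median change of 0.14 against -0.01 over all genes. Cyp2c29, a CAR-responsive P450, was at 0.03 ± 0.19 (adjusted p = 0.960), and Aldh1a1, a retinaldehyde dehydrogenase, at -0.11. The conjugate exporter gene Abcc2 was at 0.26, and Aldh1a7 at 0.81, both not called. In anti-CD40 mice, ABX raised 3 of the 4 and lowered 0, where 8.68% of all genes were called higher. Those were Cyp2c29 (0.72), Aldh1a1 (0.84) and Abcc2 (0.76). With plate column as a term, 0 of these were called. With anti-CD40 without ABX, 3 of the 4 fell, Cyp2c29 the most (-4.31 ± 0.22), and Aldh1a7 rose by 1.38. Of all genes, 28.8% were called lower and 31.8% higher there. With ABX, anti-CD40 lowered Cyp2c29 (-3.62) and Aldh1a1 (-0.84), where 24.9% of all genes were called lower.

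Other P450 genes of drug and steroid oxidation mostly fell with anti-CD40, as Cyp3a11 did, and those called with ABX rose. Of 46 listed, 12 were tested. Anti-CD40 lowered 11 and raised 1 without ABX, with a median change of -2.35 against 0.03 over all genes. With ABX it did the same in number, with a median of -2.07 against 0.02. The change of Cyp3a11 was close to these medians. Of all genes, 28.8% were called lower and 31.8% higher without ABX, and 24.9% lower and 26.6% higher with ABX. Cyp2c23 fell to 30.3 CPM in anti-CD40 mice without ABX, against 576 CPM in control mice (-4.25 ± 0.19). Cyp2c50 (-3.64), Cyp4f14, a fatty acid hydroxylase of the CYP4F subfamily (-3.65), and Cyp2c68 (-3.09) fell as well, and Cyp1b1 rose by 2.52. With ABX in control mice, 5 of the 12 rose and 0 fell (3.45% of all genes were called higher), with a median change of 0.59 against -0.01 over all genes. Cyp2c50 had 1052 CPM with ABX and 640.1 CPM without ABX (0.72 ± 0.10; adjusted p = 0.000241), and Cyp2c68 (0.69), Cyp2c23 (0.62) and Cyp4f14 (0.61) rose too. In anti-CD40 mice 5 of the 12 rose with ABX and 0 fell, where 8.68% of all genes were called higher and 7.23% lower. Among the 5 were Cyp2c23 (1.21) and Cyp2c68 (1.20). With plate column as a term, 5 of 12 were called higher in control mice and 0 in anti-CD40 mice.

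**Figure D5:**
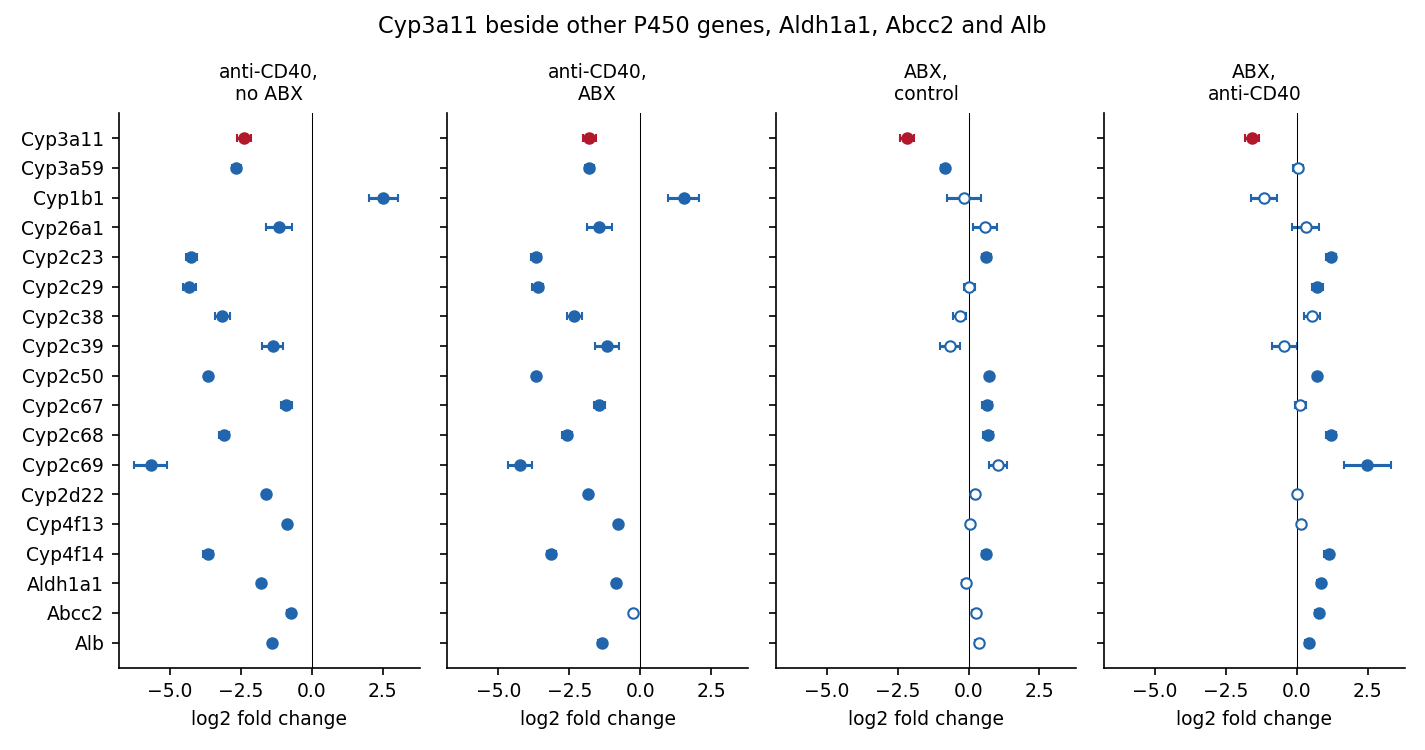
Log2 fold change with SE of Cyp3a11 (red), other P450 genes, Aldh1a1, Abcc2 and Alb (blue) in 4 comparisons; filled points were called at an adjusted p under 0.05. With anti-CD40 Cyp3a11 lies among the other P450 genes, and with ABX it lies below zero, where no gene plotted other than Cyp3a59 in control mice was called lower.

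Among 3 tested genes of bile acid synthesis and transport (21 listed), Akr1d1, which reduces the steroid ring in bile acid synthesis, fell with anti-CD40 without ABX (-3.78) and with ABX (-2.60). With ABX it rose by 1.61 in anti-CD40 mice, and was at 0.43 in control mice (not called). In control mice 0 of the 3 were called with ABX, near the 6.68% of all genes called there in either direction. Baat, which conjugates bile acids, was called in none of these 4 comparisons, and Fgfr4, a receptor that restrains bile acid synthesis, rose with anti-CD40 without ABX by 0.74 and with ABX by 0.55.

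Inflammatory transcripts moved with anti-CD40 and mostly not with ABX. Of 6 tested genes of cytokine signalling known to lower P450s (29 listed), 5 rose with anti-CD40 without ABX (31.8% of all genes were called higher) and 6 with ABX (4 in each with plate column as a term), with medians of 2.37 and 2.04 against 0.03 and 0.02 over all genes. Nfkb2, an NF-kB subunit gene, rose by 3.38. Both acute phase genes tested, Cp and A2m (24 listed), rose as well, Cp by 2.31. With ABX in control mice 1 of the 6 signalling genes rose, Nfkbia (0.90), which encodes an NF-kB inhibitor. In the same comparison 1 fell, the interleukin-1 receptor gene Il1r1 (-0.75), and Cp was at 0.05, not called. Of all genes, 3.45% were called higher there and 3.23% lower. The part of these genes in the change of Cyp3a11 was not tested.

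Markers of other cells also moved with anti-CD40. The 3 of 11 monocyte and macrophage markers that were attributed summed to 283 to 891 CPM with both treatments, 245 to 971 with anti-CD40 alone, 109 to 158 with ABX alone and 106 to 240 with neither. Lyz2 rose (2.32 without ABX) and Adgre1 fell (-2.50). The 4 of 9 sinusoidal endothelial markers summed to 14.5 to 70.8 CPM with both treatments, 25.5 to 103 with anti-CD40 alone, 101 to 130 with ABX alone and 112 to 165 with neither. None of these 7 markers was at 0 throughout a group. With ABX in control mice 0 of the 7 were called, where 6.68% of all genes were called in either direction. With ABX in anti-CD40 mice 1 of the 7 was called, where 15.9% of all genes were called in either direction. Counts of so few genes are near these shares. The 1 called was the endothelial scavenger receptor gene Stab1 (-0.89, adjusted p = 0.0247, edgeR), and the cholangiocyte marker Sox9 fell too (-1.25). Both calls were lost with plate column as a term, and that of Stab1 also without mouse 13, 14, 15, 16, 17 or 18. Marco, the 1 of 7 Kupffer cell markers attributed, was at -1.84 with ABX in control mice and -1.26 in anti-CD40 mice, neither called (both had an unadjusted p under 0.05). Of 9 neutrophil markers, 0 were attributed. Mitochondrial transcripts took 23.3% ± 1.86 of counts with both treatments, 24.8% ± 0.795 with anti-CD40 alone, 32.2% ± 2.15 with ABX alone and 28.5% ± 3.53 with neither. The part of these differences in the change of Cyp3a11 was not tested.

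The genes whose level was most like that of Cyp3a11 over the 20 mice were found by the root mean square difference of centred log2 CPM, among 1267 genes of at least 10 CPM on average, whose median difference was 1.45. They were Retsat (0.74), a retinol saturase, Hes1 (0.75), a Notch-responsive repressor, Cyp3a59 (0.80), Tbx3 (0.85), a transcription factor of pericentral hepatocytes, Aldh3a2 (0.94), a fatty aldehyde dehydrogenase, and 9130409I23Rik (0.94). All 6 averaged more in control mice without ABX than in any other group, as Cyp3a11 did. Being chosen for likeness to Cyp3a11 over these mice favours that shared order, so it is a description. Hes1 was also called lower with ABX in control mice (-0.81) and in anti-CD40 mice (-1.08), and it fell with anti-CD40 without ABX (-1.70) and with ABX (-1.97). Both ABX calls of Hes1 were lost with plate column as a term (-0.76, adjusted p = 0.0890, in control mice and -0.82, adjusted p = 0.399, in anti-CD40 mice), and that in control mice also without mouse 9 (-0.71, adjusted p = 0.0544). Tbx3 fell with ABX in control mice (-1.63) and was at -0.24 in anti-CD40 mice (not called). Within groups, over deviations from the group means in the 20 mice, Cyp3a11 correlated most with Uqcrfs1 (r = 0.87), Cyp4f14 (0.81), Atp5c1 (0.80), Ces1e (0.80), Idh3b (0.79) and Suclg1 (0.78), where the median gene had r = 0.06 and Alb 0.74. Uqcrfs1, Atp5c1, Idh3b and Suclg1 encode mitochondrial proteins. These points share library and scaling, and the coefficients are a description.

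The 20 libraries held 5053014 to 7618736 counted fragments (median 6199078). Of all counts, 52.34% lay over several genes and were not used, and 99.46% lay over mouse exons.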

How the data were processed

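Liver RNA of 20 mice was sequenced. The submitters' processing notes name Trimmomatic 0.38, HISAT2 2.1.0 and the build mm10. Per the file headers, the authors made raw counts of fragments over exons with featureCounts 1.5.0-p2, paired and unstranded, with the human GRCh38 Ensembl 93 annotation; the deposited counts are not normalized. Feature coordinates were therefore read as mm10, and features over exons of exactly 1 gene of GENCODE M21 by at least 50 bp were summed per gene; human identifiers were ignored. The 3576 features on chromosomes that mice lack held 0 counts. Groups came from the sample titles.

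One edgeR 4.0.16 quasi-likelihood fit (R 4.3.3, TMM, robust, filterByExpr) of all libraries tested 2200 genes, two-sided, with Benjamini-Hochberg adjustment and a threshold of 0.05; the script was tested on simulated data. Log2 CPM used a prior count of 2. Exact permutation tests used 252 splits (scipy 1.17.1). Intervals for shares are exact (Clopper-Pearson) and cover counting error only. Alternatives were other scalings, DESeq2 1.42.0, filters, attribution limits, plate column and leaving out each mouse. Named genes are Cyp3a11, Alb, members of fixed lists by smallest p (1 of them is not reported here), and the 6 genes most like Cyp3a11 by each of 2 measures. The gene and the lists were chosen with earlier results of these data known.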

Additional observations from a re-analysis of the deposited data

Results flagged for a closer look

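Cyp3a11 in control mouse 4, given ABX, was 915 CPM, against 479 to 590.02 CPM in the other 4 mice of its group, a gap large for the group's range (Dixon's ratio 0.746, critical value 0.71). Without this mouse the ABX change in control mice was -2.36, and its call held. Tbx3 in mouse 20, given anti-CD40 without ABX, was 33.4 CPM, against 18.1 to 22.4 CPM in the other 4. Chance marks about 1 in 20 groups this way, and 32 groups were examined.

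The effect of ABX differed between anti-CD40 and control mice for 8 named genes, as tested by the interaction in edgeR. Of all genes, 7.55% had a called interaction. The ABX log2 fold change in anti-CD40 mice minus that in control mice was 1.58 for 9130409I23Rik (adjusted p = 0.0312), 1.18 for Akr1d1 (adjusted p = 0.00376), 0.95 for Aldh1a1 (adjusted p = 0.00195) and 0.82 for Aldh3a2 (adjusted p = 0.0359). It was 0.86 for Cyp3a59 (adjusted p = 0.0249), 0.43 for Ncor1 (adjusted p = 0.0417), -0.81 for Nfkbia (adjusted p = 0.0322) and 1.39 for Tbx3 (adjusted p = 0.0417). Among these, 9130409I23Rik, Aldh3a2, Cyp3a59 and Tbx3 belong to the 6 genes most like Cyp3a11. That likeness was taken over the same 20 mice, so their calls are not independent of it. With plate column as a term, 0 genes had a called interaction in edgeR, and 282 of 2200 had an unadjusted p under 0.05.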

How the results depend on the processing

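The 5 changes of Cyp3a11 kept their direction under every alternative run and their call under every one that gave a test (plate column 4 alone gave none), and its interaction was called under none. Under the plate column term, mouse 16 alone sets the level of anti-CD40 mice without ABX. Leaving out each mouse gave -2.53 to -2.25 for anti-CD40 without ABX, -1.87 to -1.61 with ABX, -2.36 to -2.04 for ABX in control mice, -1.71 to -1.47 in anti-CD40 mice and -4.11 to -3.83 for both. Library totals as the scaling shifted the median of all genes by 0.24 for anti-CD40 without ABX, 0.35 with ABX, -0.13 for ABX in control mice and 0.22 for both; relative to that median Cyp3a11 was at -1.80 for anti-CD40 with ABX. With library totals, anti-CD40 alone against ABX alone reversed to 0.14 (exact permutation p = 0.508), and Asgr1 for anti-CD40 with ABX to 0.096; relative to the hepatocyte identity mean, anti-CD40 alone against ABX alone was 0.060 (exact permutation p = 0.778). The excess over the sum of CPM differences was 2387 CPM with totals without mitochondrial counts, which divides by a smaller total.

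Counts of genes called moved more. With plate column as a term they were 735, 690, 77 and 5 for anti-CD40 without ABX, with ABX, ABX in control mice and in anti-CD40 mice (against 1333, 1133, 147 and 350), and 0 for the interaction (against 166); the cause was not tested. Within plate column 3, 44 were called for ABX in control mice, with fewer mice. Within plate column 4, anti-CD40 without ABX was mouse 16 alone, which enters both comparisons possible there. Cyp3a11 values were -2.59 for anti-CD40 without ABX and -1.71 for ABX in anti-CD40 mice, with no test. Testing each interval, over more features, gave 3136, 2747, 310 and 759 in the same order, 2700 for both treatments (against 1126) and 370 for the interaction, which had 83 with totals without mitochondrial counts. Leaving out each mouse gave 89 to 157 genes for ABX in control mice (90 without mouse 4, 89 without mouse 10), 225 to 380 in anti-CD40 mice (225 without mouse 14, 230 without mouse 18) and 88 to 194 for the interaction, lowest without mouse 14. Of 5139 alternative values for the other named genes, 246 lost their call and 1 reversed. No paired analysis was possible because the mice are numbered 1 to 20 with no number shared between groups.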
